A study of Mus musculus with 6 samples.

Results

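The proteasome genes of 6 mouse melanomas were examined. They were taken as the protein-coding genes whose symbol starts with Psma, Psmb, Psmc, Psmd, Psme or Psmf followed by a number. The catalytic genes Psmb8, Psmb9 and Psmb10 of the immunoproteasome were left out of the set and served for comparison. The pattern gave 43 members of 55536 annotated genes, and 41 members had enough counts to be tested. The exceptions were Psma8, the alpha subunit of the testis, with 3 to 14 counts per tumor, and Psmb11, the beta subunit of the thymus, with 0 to 6. Psmc3ip was also caught by the pattern, although it encodes a cofactor of meiotic recombination and no proteasome subunit, so it is counted with the members and named apart. The marker genes Psma1, Psmb5 and Psmd1 were all detected, at a summed 366 to 389 CPM (counts scaled to the library total, with TMM factors) across the tumors.

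All tumors were grown under the skin of C57BL/6J mice from B16, a melanoma cell line of the same strain, after injection of about 100000 cells, and were collected on day 13. The vector control group held 3 tumors and the ATM KO group, from B16 cells with a knockout of the DNA damage kinase ATM, held 3 tumors. The labels leave unsaid how ATM was disrupted, whether the knockout line is a clone, and whether each tumor came from a separate mouse. What the p-values measure is thus the spread among these 6 tumors, which may be technical, and genotype and cell line cannot be told apart. Each library held 22101124 to 29037715 counts on genes.

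The proteasome degrades proteins tagged with ubiquitin. Its core particle, the 20S, is a barrel of alpha rings, which gate the entry, and beta rings, in which Psmb5, Psmb6 and Psmb7 carry the standard catalytic sites. The regulatory particle, the 19S, binds ubiquitin, unfolds the substrate with a ring of ATPases encoded by the Psmc genes, and removes ubiquitin in its lid. Interferon gamma replaces the standard catalytic subunits with Psmb8, Psmb9 and Psmb10 and induces the activator genes Psme1 and Psme2. When proteasome activity falls, the transcription factor NRF1, encoded by Nfe2l1, raises many subunit genes together through antioxidant response elements.

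The core of such an element, TGACNNNGC with N for any base, was searched on both strands of the promoters that RefSeq gives on GRCm38.p6, from 250 bases before to 50 bases after the transcript start. Promoters were found for 36 of the 43 members. The core was present in 6 of 39 member promoters (15.4%), against 12.4% of all 32851 promoters. These stretches, not tested against expression, are shown because Psmb5 and Psmc6, the members that fell in the knockout tumors, are among the 6 genes. Each is read 5′ to 3′ on the strand that holds the core, with the core in capitals.
Psmb5: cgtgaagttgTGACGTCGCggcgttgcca
Psmb6: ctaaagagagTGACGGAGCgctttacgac
Psmc6: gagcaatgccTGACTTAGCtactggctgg
Psmd12: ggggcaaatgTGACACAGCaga
Psmd9: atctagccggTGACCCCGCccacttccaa
Psme4: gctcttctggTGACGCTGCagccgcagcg

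The Psmb5 stretch lies at chr14:54618024-54618052 on the strand of the gene, with the most upstream base of the core 47 bases before the RefSeq transcript start. That of Psmc6 lies at chr14:45329587-45329615, on the opposite strand, with the most upstream base of the core 227 bases before the RefSeq start. The flanking sequence differed between both genes, as the longer upstream stretches show, read on the strand of each gene. They stop at the gene start in GENCODE M21, which lies upstream of the RefSeq start for both genes, so the core is nearer to their end than the distances given above. The Psmb5 stretch covers chr14:54618023-54618245 on the minus strand and that of Psmc6 chr14:45329574-45329787 on the plus strand, where the core appears as its reverse complement.
Psmb5: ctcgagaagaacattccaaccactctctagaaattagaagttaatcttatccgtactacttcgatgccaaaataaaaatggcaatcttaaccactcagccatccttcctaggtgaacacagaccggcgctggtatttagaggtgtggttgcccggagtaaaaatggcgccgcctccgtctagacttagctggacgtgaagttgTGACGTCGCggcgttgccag
Psmc6: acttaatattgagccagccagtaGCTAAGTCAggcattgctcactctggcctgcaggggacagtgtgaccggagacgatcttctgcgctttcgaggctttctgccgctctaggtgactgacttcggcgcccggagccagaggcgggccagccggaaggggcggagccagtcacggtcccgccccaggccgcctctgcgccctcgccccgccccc

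Of 4 further motifs searched the same way, CCGGAAG, a core bound by ETS factors, was in 35.9% of member promoters and 8.86% of all promoters. Its 13 member genes were Psma6, Psmc1, Psmc2, Psmc3ip, Psmc6, Psmd2, Psmd4, Psmd6, Psmd11, Psmd12, Psmd13, Psme3 and Psme4. CCAAT was in 35.9% of member promoters and 37.4% of all, CACGTG in 7.69% and 7.15%, and TATAAA in 7.69% and 13.6%. TGACNNNGC and CCGGAAG occurred together in the promoters of Psmc6, Psmd12 and Psme4. These matches describe letters in a window and were not tested against expression. All promoters here were not limited to those of genes expressed in these tumors. The larger share of CCGGAAG is thus not read as particular to the proteasome.

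The knocked-out gene was counted first. Vector control tumors 1, 2 and 3 held 2508, 2346 and 2306 counts of Atm, against 2371, 3692 and 3132 from the ATM KO tumors, at 105 ± 8.09 and 112 ± 18.0 CPM (SD, n = 3). Counts over the whole gene, in tumors that also hold host cells, do not check the genotype labels. Skeletal muscle markers summed to 20.6 to 7451 CPM in the control tumors and 595 to 7375 CPM in the knockout tumors, and fibroblast markers to 273 to 2952 and 1291 to 1505 CPM, while 7 melanoma markers summed to 18811 to 27174 and 18822 to 19058 CPM. All 5 T cell markers were detected in every tumor and summed to 23.2 to 29.9 CPM in the controls against 31.8 to 64.8 CPM in the knockouts. The 4 endothelial markers summed to 137 to 235 and 109.8 to 135 CPM, and the 4 B and plasma cell markers, 2 of them at 0 in some tumors, to 1.59 to 14.8 and 1.095 to 1.27 CPM. In a whole tumor, fewer cells of a type and less RNA per cell cannot be told apart, and the part of these cell types in the differences reported next was not tested.

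Proteasome transcripts together differed little in level between tumors, and the scaling decides whether the groups overlap. Summed over the members, vector control tumors 1, 2 and 3 gave 5519, 5387 and 5362 CPM, against 5631, 5569.6 and 5421 CPM from ATM KO tumors 1, 2 and 3, and the ranges overlapped. As a share of all gene counts, without TMM scaling, they took 0.528%, 0.533% and 0.536% in the controls against 0.580%, 0.563% and 0.546% in the knockouts, all of them higher. The spread of single members was small. Their median coefficient of variation was 3.84% among the control and 5.02% among the knockout tumors, against 8.50% and 7.17% over the 9761 protein-coding genes that averaged 10 CPM or more. These genes were not matched to the members in level, so the smaller spread is not read as particular to the proteasome. Of the 41 tested members 37 varied by less than 10% among the control tumors.

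In ATM knockout tumors 3 members rose, 2 fell and the other 36 did not pass the test. Psmf1, Psmd10 and Psma7 rose and Psmb5 and Psmc6 fell, all by less than 1.5-fold. The test was edgeR's quasi-likelihood test over 15696 genes with Benjamini-Hochberg adjusted p-values and a threshold of 0.05. It called 4.96% of all genes, 2.21% as higher and 2.75% as lower, and 12.2% of the tested members. The member log2 fold changes (knockout minus control) ran from -0.39 to 0.56 with a median of 0.05, against -0.0058 over all genes, and 26 were above 0. The 2 groups did not overlap for 20 of 41 members, 11 higher and 9 lower. Over all genes 29.7% did not overlap, 14.3% higher and 15.4% lower. An unadjusted p below 0.05 was reached by 15 tested members (36.6%) and by 23% of all genes. Of the 9761 protein-coding genes that averaged 10 CPM or more, 6.38% were called and 34.1% did not overlap. An unadjusted p below 0.05 was reached by 27.8% of them. The called genes were 44.6% higher in the knockout, or 58.6% with libraries scaled by size alone.

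**Figure D1:**
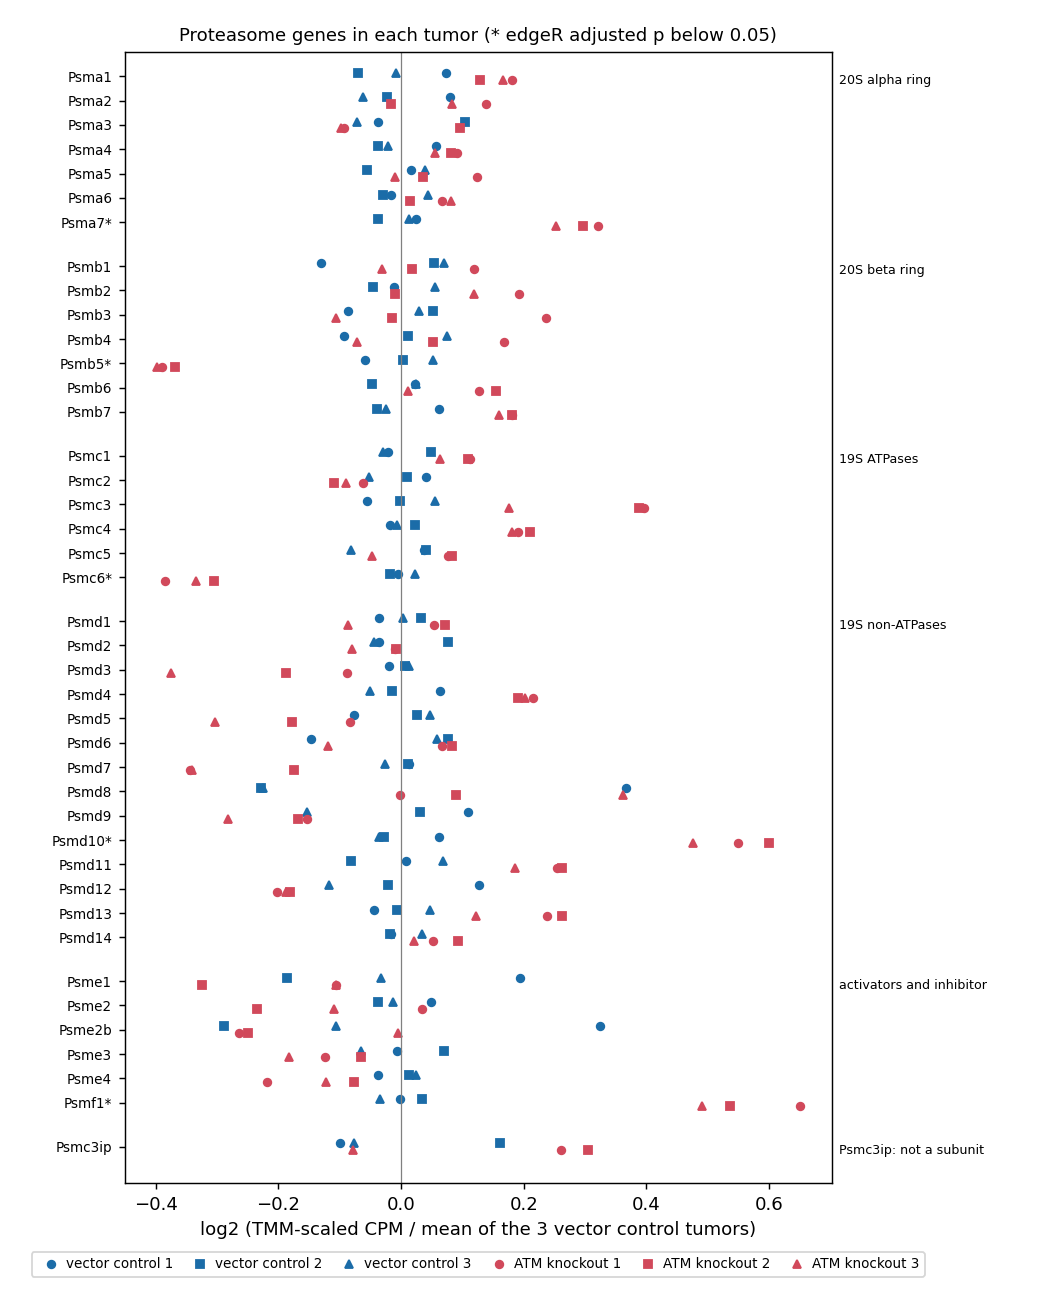
Level of each tested member in each tumor, as log2 of its TMM-scaled CPM over the mean of the 3 vector control tumors (horizontal axis), with genes grouped by their place in the proteasome; blue points are vector control and red points ATM knockout tumors, with 1 shape per tumor number. The starred members Psma7, Psmd10 and Psmf1 lie to the right and Psmb5 and Psmc6 to the left of all control tumors, while Psmd8 spreads widely in both groups.

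In the alpha ring, Psma7 rose and the other 6 tested genes did not pass. Psma7 was at 170.2, 163 and 169 CPM in the controls against 209, 206 and 199 CPM in the knockouts. Every knockout tumor was above every control tumor, and the log2 fold change was 0.29 ± 0.06 (SE; edgeR adjusted p = 0.0474). Psma1 was the other alpha gene whose groups did not overlap, at 134, 121 and 127 CPM in the controls against 144, 139 and 143 CPM in the knockouts (0.16 ± 0.07, edgeR adjusted p = 0.212). The alpha genes Psma2, Psma3, Psma4, Psma5 and Psma6 had log2 fold changes between -0.03 and 0.08, and their groups overlapped.

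Of the 3 catalytic genes of the beta ring, Psmb5 fell and Psmb6 and Psmb7 did not pass. Psmb5, whose product cuts after hydrophobic residues and is the main target of bortezomib, was measured at the lowest level of the ring. The controls gave 22.6, 23.6 and 24.5 CPM and the knockouts 18.0, 18.3 and 17.9 CPM, all of them lower (log2 fold change -0.39 ± 0.08, edgeR adjusted p = 0.0464). Psmb7, which cuts after basic residues, was at 123, 114 and 116 CPM in the controls against 133, 133 and 131 CPM in the knockouts (0.17 ± 0.06, edgeR adjusted p = 0.155). These groups did not overlap, but the gene did not pass. Psmb6, which cuts after acidic residues, was at 104, 99.2 and 104 CPM in the controls against 112, 114 and 103 CPM in the knockouts (0.10 ± 0.07, edgeR adjusted p = 0.447). Its ranges overlapped. The structural beta genes Psmb1, Psmb2, Psmb3 and Psmb4 had log2 fold changes of 0.04, 0.10, 0.05 and 0.05, and all 4 overlapped between the groups.

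Among the 6 ATPase genes Psmc6 fell. The controls gave 158, 157 and 161 CPM and the knockouts 122, 128 and 126 CPM, with no overlap (log2 fold change -0.34 ± 0.06, edgeR adjusted p = 0.0350). Psmc3, another subunit of the same ring, was at 202, 210.2 and 219 CPM in the controls against 277, 275 and 238 CPM in the knockouts. It was higher in all 3 knockout tumors but did not pass in edgeR (0.32 ± 0.08, adjusted p = 0.0801). Psmc4 was at 126 ± 1.82 and 144 ± 1.52 CPM (SD, n = 3; 0.19 ± 0.06, edgeR adjusted p = 0.106). Psmc1 (0.10) was higher and Psmc2 (-0.09) lower in all 3 knockout tumors without passing, and Psmc5 (0.04) overlapped. The groups did not overlap for 5 of the 6 ATPase genes, 3 higher and 2 lower, where 29.7% of all genes and 34.1% of protein-coding genes that averaged 10 CPM or more did not overlap. These are few genes, and nothing particular to the ring is read from the count.

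Of the 14 non-ATPase genes of the regulatory particle, Psmd10 rose and the other 13 did not pass. Psmd10 encodes gankyrin, a chaperone that assembles the base and leaves before the particle is complete, and that also binds the p53 ligase MDM2. It was at 24.3, 22.8 and 22.7 CPM in the controls against 34.0, 35.3 and 32.4 CPM in the knockouts, all of which were higher (log2 fold change 0.54 ± 0.08, edgeR adjusted p = 0.0235). The other base chaperones among the members, Psmd5 and Psmd9, had negative values. Psmd5 was at 57.8 ± 2.62 CPM in the controls against 50.9 ± 3.86 CPM in the knockouts (SD, n = 3; -0.19, edgeR adjusted p = 0.227). Psmd9 was at 34.6 ± 3.17 and 30.1 ± 1.45 CPM (-0.20, edgeR adjusted p = 0.265). Both were lower in all 3 knockout tumors, though by less than 1 CPM from the nearest control, and did not pass.

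The ubiquitin receptor gene Psmd4 was at 195, 184 and 180 CPM in the controls against 216, 212 and 214 CPM in the knockouts (0.20 ± 0.06, edgeR adjusted p = 0.120), without overlap. Of the lid genes, Psmd11 (0.23) and Psmd13 (0.21) were higher and Psmd7 (-0.28), Psmd3 (-0.21) and Psmd12 (-0.19) lower in every knockout tumor, and none of the 5 passed in edgeR. Psmd7, the partner of the deubiquitinase subunit, came closest, at 190.1, 189.8 and 185 CPM in the controls against 148, 167 and 149 CPM in the knockouts (edgeR adjusted p = 0.0760). The deubiquitinase gene Psmd14 itself (0.06) and the base scaffolds Psmd1 (0.01) and Psmd2 (-0.03) overlapped. Psmd1 was at 218 ± 5.21 and 220.3 ± 13.0 CPM (SD, n = 3; SE of the log2 fold change 0.07, edgeR adjusted p = 0.938). Psmd2 was the most abundant member, at 380.1 ± 18.0 CPM in the controls against 372 ± 10.6 CPM in the knockouts.

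Psmd8, a lid gene, had the largest coefficient of variation of the tested members among the control tumors. Vector control tumors 1, 2 and 3 gave 354, 234 and 235 CPM, against 274, 292 and 353 CPM in the ATM KO tumors in the same order. The high values came from 1 tumor of each group, and the coefficient was 25.1% in the controls and 13.4% in the knockouts. No edgeR difference between the groups was detectable against that spread (0.16 ± 0.19, adjusted p = 0.696).

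Among the activators and the inhibitor, Psmf1 rose and the 5 activator genes did not pass. Psmf1 encodes PI31, which inhibits the core particle in the test tube and helps to move proteasomes in neurons. It was at 42.0, 43.0 and 41.0 CPM in the controls against 65.9, 60.9 and 59.1 CPM in the knockouts, with every knockout tumor higher. Its log2 fold change of 0.56 ± 0.07 was the largest of the members (edgeR adjusted p = 0.0176). The activator genes all had negative values, Psme1 -0.18, Psme2 -0.10, Psme2b -0.17, Psme3 -0.12 and Psme4 -0.14. Psme4, which encodes the nuclear activator PA200, was the 1 activator gene without overlap, at 189.9, 197 and 198 CPM in the controls against 168, 185 and 179 CPM in the knockouts (edgeR adjusted p = 0.280). Psme1 was at 253, 194 and 216 CPM in the controls against 205, 177 and 205 CPM in the knockouts, and Psme3, which encodes a nuclear activator, at 247 ± 11.6 and 227 ± 9.21 CPM (SD, n = 3).

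The 5 calls depended on which tumors entered and on the settings of the test. Without 1 tumor the edgeR calls of Psmd10 and Psmf1 held when vector control tumor 1 or ATM KO tumor 3 was left out, and ended without any of the other 4 (adjusted p 0.0571 to 0.129). Those of Psmb5 and Psmc6 held without vector control tumor 1 and ended without any other tumor, and that of Psma7 ended without each tumor in turn (adjusted p 0.0523 to 0.19). The log2 fold changes stayed between 0.51 and 0.61 for Psmf1, 0.51 and 0.59 for Psmd10, and 0.27 and 0.34 for Psma7 over all 14 alternative settings. They stayed between -0.41 and -0.34 for Psmb5 and between -0.36 and -0.29 for Psmc6. Psmb5 passed in 4 of the 14 settings, Psma7 in 5, Psmc6 in 7, and Psmd10 and Psmf1 in 9. In limma-voom Psmb5 and Psma7 did not pass (adjusted p 0.0502 and 0.0522). Without a filter on low counts Psmb5, Psma7 and Psmc6 did not pass in edgeR (adjusted p 0.125, 0.0699 and 0.0513). Nor did Psmb5 with library size alone (0.0691) or non-robust dispersions (0.0519). A replicate block ended all 5 calls. Calls over all genes moved in the same fits, from 347 higher and 431 lower with every tumor. Leaving out vector control tumors 1, 2 and 3 in turn gave 587 and 622, 19 and 9, and 55 and 55. Leaving out ATM KO tumors 1, 2 and 3 gave 0 and 2, 22 and 20, and 97 and 99, and the replicate block gave 0 and 0. DESeq2 called all 5 and, as higher, Psmb7, Psmc3, Psmc4, Psmd4 and Psmd11 and, as lower, Psmd7, at a background of 14.6% of all genes.

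Of the 5 called members 4 had log2 fold changes within 0.1 of the median of the genes beside them. Psmb5 (chromosome 14, 54614119 to 54618022, GRCm38) and Psmc6 (chromosome 14, 45329788 to 45349705) lie on a chromosome where the median log2 fold change over 528 tested genes was -0.35 and 84.3% of genes were below 0. Within 5 Mb of Psmb5 the median over 130 tested neighbours was -0.34, close to the -0.39 of Psmb5. Within 5 Mb of Psmc6 it was -0.37 over 44 neighbours, close to the -0.34 of Psmc6. Psmd10 (X chromosome, from 140948429) had 43 tested neighbours with a median of 0.52, next to its own 0.54, although the whole X chromosome had a median of -0.07. Psma7 (chromosome 2, from 180036374) had 59 neighbours with a median of 0.26, next to its own 0.29. Psmf1 (chromosome 2, from 151715812) had 109 neighbours with a median of 0.25, which was 0.31 below its own value. The part of position in these differences was not tested.

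**Figure D2:**
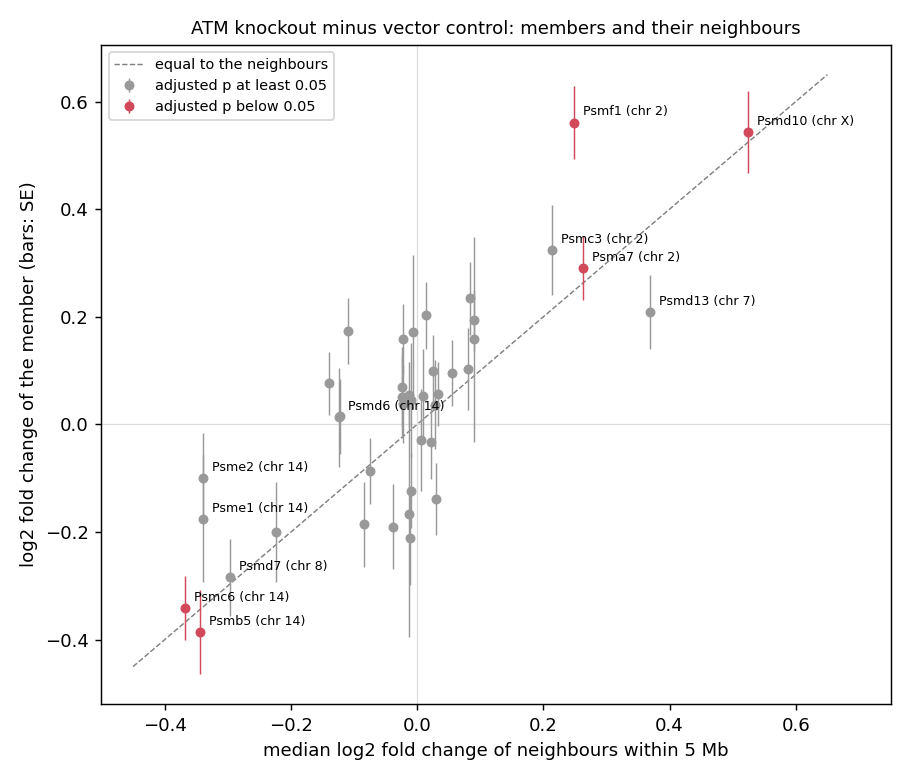
Log2 fold change of each tested member, ATM knockout minus vector control (vertical axis, bars are the SE), against the median log2 fold change of the other tested genes starting within 5 Mb (horizontal axis); red marks members with an edgeR adjusted p below 0.05 and the dashed line marks equal values. Psmb5, Psmc6, Psmd10 and Psma7 lie near the line and Psmf1 lies 0.31 above it.

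Members on the same chromosome did not all share its direction. On chromosome 14 the activator genes Psme1 and Psme2 had values of -0.18 and -0.10 where their 133 neighbours had a median of -0.34, and Psmd6, a lid gene, was at 0.01 (90.3 ± 7.58 and 91.1 ± 6.91 CPM; SD, n = 3) beside a median of -0.12 over 26 neighbours. On chromosome 8 Psmd7 (-0.28) matched its 121 neighbours (-0.297). On chromosome 2 Psmc3 (0.32) lay among 51 neighbours with a median of 0.21, while Psmb7 (0.17) and Psmd5 (-0.19) lay in stretches with medians of -0.11 and -0.08. On chromosome 3 Psmd4 (0.20) had neighbours with a median of 0.01. Of the 41 tested members 21 lay within 0.1 of their neighbours' median, 4 of them among the 5 that passed.

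The standard catalytic genes were set against the inducible genes that replace them, Psmb8 for Psmb5, Psmb9 for Psmb6 and Psmb10 for Psmb7. None of the 3 inducible genes passed in edgeR, and none had an unadjusted p below 0.05. Vector control tumors 1, 2 and 3 gave 161, 83.7 and 101 CPM of Psmb8, against 160.1, 94.9 and 152 CPM in the ATM KO tumors in the same order (0.24 ± 0.31, edgeR adjusted p = 0.720). Psmb9 was at 133 ± 33.1 and 165 ± 24.3 CPM (SD, n = 3; 0.31, edgeR adjusted p = 0.428) and Psmb10 at 181 ± 19.7 and 183 ± 34.7 CPM (0.02, edgeR adjusted p = 0.969). The median coefficient of variation of the inducible genes was 24.8% among control tumors, against 2.84% to 3.86% for the standard catalytic genes.

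The ratio of Psmb8 to Psmb5 counts was 7.09, 3.54 and 4.12 in the controls against 8.90, 5.20 and 8.48 in the knockouts, and the groups overlapped. Its mean log2 difference of 0.64 had a two-sided exact permutation p of 0.2 (adjusted over the 3 ratios, 0.3), where the smallest p that 3 against 3 tumors allow is 0.1. The ratio of Psmb9 to Psmb6 differed by 0.23 (exact permutation p = 0.2, adjusted 0.3) and that of Psmb10 to Psmb7 by -0.17 (exact permutation p = 0.4, adjusted 0.4). In both groups 1 tumor stood apart for Psmb8 to Psmb5, vector control tumor 1 with the highest control ratio and ATM KO tumor 2 with the lowest knockout ratio. Without either of them the difference was 0.94 or 0.89, but they were picked by their ratios. Leaving out any other single tumor instead made the difference smaller than 0.64.

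**Figure D3:**
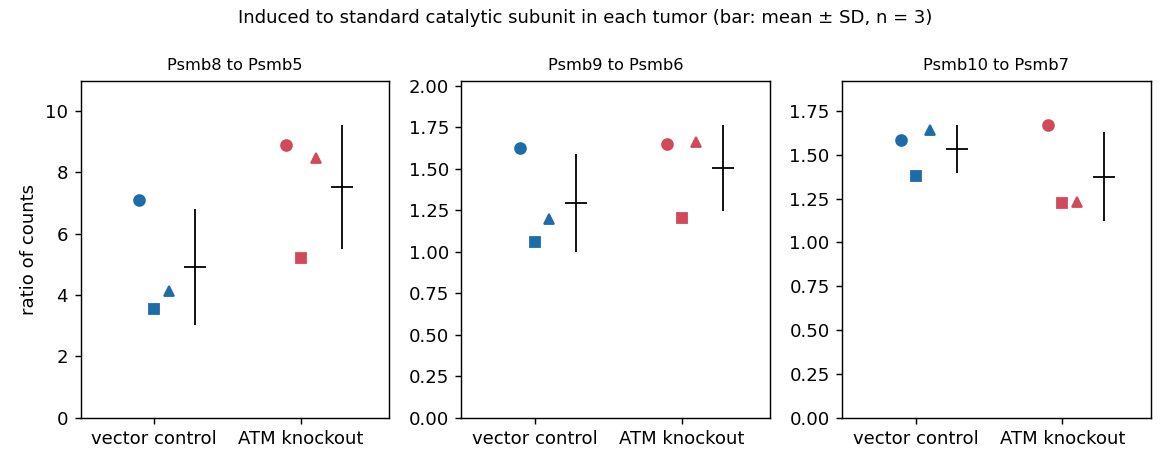
Ratio of counts of the inducible to the standard catalytic gene in each tumor, for Psmb8 to Psmb5, Psmb9 to Psmb6 and Psmb10 to Psmb7, with blue points for vector control and red points for ATM knockout tumors and the mean ± SD (n = 3) as a bar beside them. The groups overlap for all 3 ratios.

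Levels were compared between genes as CPM per kilobase of the mRNA with the longest coding sequence in GENCODE M21. On this scale the alpha ring genes ran from 9.19 (Psma3) to 183 (Psma7) and the beta ring genes from 26.2 (Psmb5) to 164 (Psmb4) in the control tumors, although each occurs in equal number in the rings. The ATPase genes spanned a narrower range, from 71.1 (Psmc6) to 147 (Psmc5). Among the non-ATPase genes Psmd8 was highest at 178, and the base chaperones Psmd5, Psmd9 and Psmd10 were lowest at 13.2, 13.3 and 16.3. Psme1, at 199, exceeded its partner Psme2, at 76.5, and Psmf1 was at 11.03.

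The 3 ring genes with the lowest levels were among the 4 whose coding sequence mostly occurs elsewhere in the annotation. Psma3, Psma5, Psmb3 and Psmb5 shared 85.6%, 79.1%, 70.7% and 64.9% of the 50-base words of their coding sequence with other annotated genes, mostly processed pseudogenes such as Gm13835 for Psma3 and Gm3375 for Psmb5. Their levels per length were 9.19, 21.9, 46.9 and 26.2. The other 10 tested ring genes shared at most 39% and were at 37.8 to 183, so the ranges overlapped between Psma2 and Psmb3. Psme2 and Psme2b shared 69.5% and 70.2%, mainly with each other, and their split is uncertain. The counter for reads aligned to several places is listed at 0 in every file, so how reads that match several copies were handled cannot be read from the files. The 4 pseudogenes with Psm names had at most 2 counts in any tumor. Copies with Gm names, such as Gm13835 and Gm3375, are not among these 4, and their counts are not given here. The part of shared sequence in the low values was not tested. It also limits Psmb5, whose call rests on 439 to 591 counts per tumor.

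**Figure D4:**
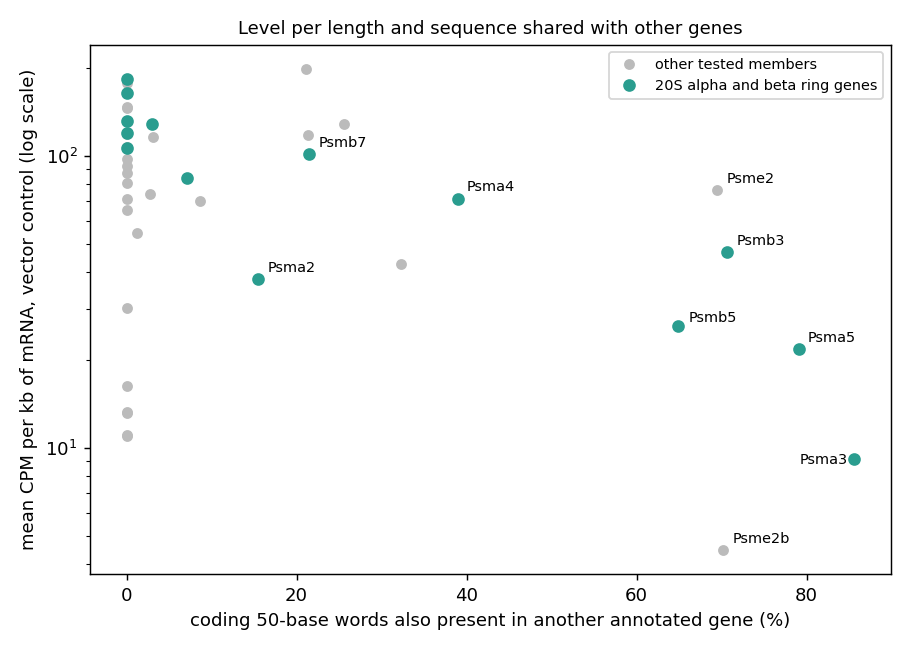
Mean CPM per kilobase of mRNA in the 3 vector control tumors (vertical axis, log scale) against the share of 50-base words of the coding sequence that occur in another annotated gene (horizontal axis, %), for each tested member; ring genes are green and other members gray. Psma3, Psma5, Psmb3 and Psmb5 lie at the right, between 64.9% and 85.6% shared, with levels of 9.19 to 46.9.

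Genes that build, feed and regulate the proteasome were described from 7 lists of 57 genes, each counted once. None of them rose in edgeR, against 2.21% of all genes. DESeq2 called 4 as higher, Ubqln2, Ubb, Nsfl1c and Ubxn6, and 3 as lower, at a background of 14.6% of all genes. An unadjusted p below 0.05 was reached in edgeR by 5 genes with higher and 8 with lower levels, 22.8% of the lists against 23% of all genes. Ubqln2, on the X chromosome, encodes a shuttle that carries ubiquitin-tagged proteins to the proteasome, and was at 23.5 ± 7.58 and 45.1 ± 3.81 CPM (0.94 ± 0.22, edgeR adjusted p = 0.0685, DESeq2 adjusted p = 0.00118). Adrm1, a ubiquitin receptor beside Psma7 on chromosome 2, was at 17.2 ± 1.95 and 22.5 ± 1.46 CPM (0.39, edgeR adjusted p = 0.110).

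The 5 assembly factor genes of the core, Psmg1 to Psmg4 and Pomp, had log2 fold changes between -0.16 and 0.02, and all overlapped. Of the 9 regulators of proteasome genes none passed in edgeR, and Nfe2l1 was called lower by DESeq2. Nfe2l1, which encodes NRF1, was at 387 ± 8.44 CPM in the controls against 341 ± 13.7 CPM in the knockouts, lower in all 3 (-0.18 ± 0.07, edgeR adjusted p = 0.162, DESeq2 adjusted p = 0.0246), and Nfyc was at -0.20 with overlapping groups. None of the 6 ubiquitin and activating enzyme genes passed in edgeR, and DESeq2 called Ubb and Uba1. An unadjusted edgeR p below 0.05 was reached by 4 of these genes, against 23% of all genes. Ubb, a polyubiquitin gene, was at 159 ± 7.78 and 193 ± 11.95 CPM (0.28, edgeR adjusted p = 0.0888, DESeq2 adjusted p = 0.00691), and Uba1, the main ubiquitin-activating enzyme, at 613 ± 26.1 and 521 ± 24.7 CPM (-0.23, edgeR adjusted p = 0.125, DESeq2 adjusted p = 0.00680). Among 10 genes of the p97 segregase and its cofactors none passed in edgeR. Those with the smallest p, both called higher by DESeq2, were Nsfl1c (0.27, edgeR adjusted p = 0.0627, DESeq2 adjusted p = 0.00833) and Ubxn6 (0.32, edgeR adjusted p = 0.0648, DESeq2 adjusted p = 0.00622). The 10 genes of the COP9 signalosome, a complex built like the lid, ran from -0.13 to 0.14 without a call. Cops4 (-0.13) was lower and Cops5 (0.12) higher in all 3 knockout tumors.

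Psmc3ip, the recombination cofactor, was at 14.3 ± 1.47 CPM in the controls against 16.1 ± 2.25 CPM in the knockouts, with overlapping groups (SD, n = 3; 0.17 ± 0.14, edgeR adjusted p = 0.542). It shares 385 exon bases with Mlx on the opposite strand. Psmb7 shares 405 with Nek6, Psmd13 342 with Sirt3 and Psmc3 215 with Slc39a13. Whether counting used strand is not stated, so reads of these pairs may not have been told apart.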

How the data were processed

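RNA sequencing libraries of 6 tumors were deposited as raw counts per gene, 1 file per library. The submitters' processing notes name HTSeq, STAR, cutadapt, Trim Galore and SAMtools and the build GRCm38 (mm10), with no versions, roles or order. The annotation and strand setting are not given in the sources used here. All 55536 gene identifiers matched GENCODE M21, which supplied coordinates and mRNA lengths. Summary rows without a gene were dropped. Reads outside genes were 16.7% to 18.2% and ambiguous reads 1.21% to 1.38% of those listed. Libraries of 1 group differed by more than counting error (lowest chi-square over degrees of freedom 19.1), so each was 1 sample.

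Genes were filtered with filterByExpr (minimum count 10, minimum total 15) and tested with edgeR 4.0.16, TMM factors (0.958 to 1.03) and robust quasi-likelihood F tests. SE is the log2 fold change over the root of F. In a simulation of this contrast with 15442 genes tested, 4.08% of 49 genes raised 1.3-fold and 50% of 50 genes raised 2-fold were recovered. Every member was eligible to be named, with full values for markers, catalytic genes, called members and the 2 smallest p-values and extreme levels of each subgroup, and, in each list, called genes and the 2 smallest p-values. The members, lists and rule were chosen with earlier results of these data known. Alternatives included DESeq2 1.42.0 and limma-voom 3.58.1. Counting intervals are not given, as replicate tumors set the error. The result for 1 called gene of the lists is not reported here.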

Additional observations from a re-analysis of the deposited data

How the results depend on the processing

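Of the 41 tested members 33 kept the direction of their log2 fold change in all 14 alternatives, and the other 8 lay within 0.17 of 0. Scaling by library size alone turned Psma3 (0.019) and Psmd2 (0.016), and a filter of at least 1 CPM in 3 libraries turned Psma3 (7.9e-04). Leaving out 1 tumor at a time gave -0.011 to 0.12 for Psmb4, -0.048 to 0.037 for Psmd2, -0.023 to 0.092 for Psmb1, -0.053 to 0.081 for Psmd6, -0.015 to 0.068 for Psmd1, -0.097 to 0.055 for Psma3, -0.061 to 0.12 for Psmb3 and -0.26 to 0.029 for Psme2b. Over the same omissions 0 to 587 genes were called higher and 2 to 622 lower, with 0 to 2 members higher, 0 to 2 members lower, 0 to 1 genes of the lists higher and 0 to 1 lower. The members' median ran from 0.012 to 0.087. It was 0.10 with library size alone and 0.080 with the 1 CPM filter. The median over all genes moved as well, from -0.0058 in the main test to 0.042 and 0.025. Fewer tumors enter each omission. DESeq2 called 920 genes higher and 1150 lower, 8 members higher, and 4 and 3 genes of the lists. A threshold of 0.10 gave 783 and 916 genes. Lower members numbered 1 with library size alone, 1 with limma-voom, 1 with non-robust dispersions and 0 without a filter, and 2 genes of the lists were higher with library size alone and 2 with the 1 CPM filter. The cause of these shifts was not tested.

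Tumor numbers were not used to pair the samples in the main test. Deviations of same-numbered tumors from their group means correlated at 0.0437, -0.272 and -0.42. No control tumor correlated best with the knockout tumor of its own number. Such values from 3 tumors a group cannot settle whether the numbers pair samples. With a replicate block edgeR called 0 genes higher and 0 lower, 0 members either way and 0 genes of the lists lower, while unadjusted p-values fell below 0.05 for 1434 genes with higher and 1570 with lower levels. With 3 tumors a group, the test recovered 4.08% of 1.3-fold changes in simulated counts of this contrast. The changed genes were drawn from all genes tested, whose median coefficient of variation was 12.2% among the control tumors, against 3.84% for the members. The simulated contrast also gave 95 calls, against 778 in the data, and fewer calls make the adjusted threshold stricter. The recovered share thus does not tell how many member changes of that size would be missed.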
